A study of Mus musculus with 12 samples.

Results

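The immediate early genes of muscle activity were examined as 10 members of the 17752 genes in the expression table: Fos, Fosb, Jun, Junb, Egr1, Atf3, Nr4a1, Nr4a2, Nr4a3 and Ier2. They were taken by gene symbol from a list drawn up with earlier results of these data known, and all 10 had a row. RNA-seq was carried out on the extensor digitorum longus (EDL), which is made up largely of fast glycolytic fibers, in male mice assigned at 8 weeks of age to a voluntary running wheel (Trained) or to sedentary housing (Sedentary). The labels name the genotypes Ctrl and Nrip1KO, and each of the 4 groups held 3 libraries. Per the study's methods, Nrip1KO mice carried floxed Nrip1 alleles that a Cre recombinase under the muscle creatine kinase promoter deletes in heart and skeletal muscle, so that other cells of the muscle keep the gene. Both housing conditions lasted 8 weeks, and wheels were taken out of the cages 48 hours ahead of testing endpoints. Nrip1 encodes RIP140, a nuclear receptor corepressor.

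Immediate early genes are transcribed within minutes of a stimulus because the factors that switch them on are already present in the cell. In skeletal muscle, contraction raises calcium, cAMP and mitogen-activated protein kinase signaling, and these act on serum response factor, CREB and MEF2 proteins bound near the genes. The FOS, JUN and ATF proteins pair through leucine zippers to form the dimeric factor AP-1, EGR1 is a zinc finger factor, and the 3 NR4A proteins are orphan nuclear receptors. Their RNAs turn over fast, so a muscle sampled at rest shows the level left between bouts of activity.

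The targeted gene was examined first. Nrip1 is given in FPKM, fragments per kilobase of transcript with a scale set for each library. It ran from 2.53 to 4.76 FPKM in the 6 libraries labelled Ctrl and from 14.9 to 20.7 FPKM in the 6 labelled Nrip1KO. The value was thus higher in every library labelled Nrip1KO than in any labelled Ctrl, opposite to loss of the RNA. The log2 difference was 2.08 in Sedentary and 2.14 in Trained (limma adjusted p = 2.77e-04 and 2.08e-04). Per the study's methods, the loxP sites flank the exon that holds both the start and the stop codon. FPKM of the whole gene does not separate that exon from the others. Why the value is higher was not tested, and each library is therefore described by its label. The steps between low values corresponded to a scale of 20.5 to 29.6 M fragments per library, which need not equal the total depth. Between 51.2% and 52.8% of all FPKM came from mitochondrially encoded genes in the Sedentary libraries labelled Nrip1KO, against 42.2% to 47.3% in the other 9. Among 8 fast myofiber markers, all detected, summed FPKM ran from 112062 to 135272 in the libraries labelled Ctrl and from 85198 to 107337 in those labelled Nrip1KO. The marker sum of 6 endothelial genes ran from 68.5 to 82.8 FPKM and from 80.3 to 93.6 FPKM in the same order. In Sedentary the sum of 5 adipocyte genes ran from 11.2 to 24.1 FPKM in Ctrl and from 41.5 to 109.3 FPKM in Nrip1KO. In Trained the adipocyte sums overlapped. Whether these differences have a part in the results that follow was not tested. In bulk muscle, fewer cells of a type and less RNA per cell cannot be told apart. Marker sums and correlations printed here and below are a selection from more cell types.

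Promoter sequence was examined for motifs of the factors known to act on these genes. RefSeq windows of the GRCm38.p6 build, from 250 bases before to 50 after the annotated start of transcription, were at hand for 8 of the 10 members. The core of the cAMP response element (CRE), TGACG, which CREB and related factors bind, was present on either strand in 7 of the 8, against 20.8% of 32851 windows. It occurred 4 times in each of the 3 Nr4a windows, 2 times in Fos and 1 time in Fosb, Junb and Atf3, and was not found in the window of Jun. The whole palindrome TGACGTCA was in none of the 8 and in 1.79% of all windows. The AP-1-like element TGACATCA was found in Jun, and in 3.62% of all windows, and a MEF2 box in Jun, Atf3 and Nr4a2, and in 3.19% of all windows. The factor EGR1 itself recognizes GC-rich sites, and GCGGGGGCG occurred in Fosb and Nr4a1 and in 2.91% of all windows. The same search found CCAAT in 37.4%, TATAAA in 13.6% and the GC box GGGCGG in 35.7% of all windows, and they were present in 3, 3 and 7 of the 8, respectively. Some matches overlap: the TATAAA of Nr4a2 lies within its MEF2 box, and the EGR sites of Fosb and Nr4a1 share bases with a GC box. A CArG box (1.63% of all windows), TGANTCA (7.81%), GCGTGGGCG (0.612%) and AAAGGTCA (1.51%) were in none of the 8. Matches are descriptions of these windows, and motifs outside them were not searched.

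The stretches upstream of the start that hold most of these matches are printed 5′ to 3′ in the direction of transcription. In Fos (chr12:85473755-85473865, plus strand), capitals mark TGACG and the TATA box. In Junb (chr8:84978778-84978858, minus strand), capitals mark TGACG and CCAAT. In Jun (chr4:95052242-95052292, minus strand), capitals mark, in order, CCAAT, TGACATCA and the MEF2 box.
Fos: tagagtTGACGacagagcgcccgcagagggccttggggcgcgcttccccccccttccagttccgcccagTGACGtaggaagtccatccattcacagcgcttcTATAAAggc
Junb: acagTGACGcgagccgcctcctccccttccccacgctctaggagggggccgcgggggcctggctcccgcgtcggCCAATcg
Jun: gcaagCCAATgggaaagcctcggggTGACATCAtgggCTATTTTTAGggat

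The 3 Nr4a promoters are shown because they share the repeated CRE core. Capitals mark TGACG or its reverse complement CGTCA in Nr4a1 (chr15:101266606-101266816, plus strand), Nr4a2 (chr2:57124103-57124208, minus strand) and Nr4a3 (chr4:48045070-48045165, plus strand). Upstream refers to the RefSeq start of each window. The Nr4a1 stretch lies inside the gene span given below, and the Nr4a3 stretch runs past the start of its span. In Nr4a1 the run CGCCCCCGC is the EGR site read from the other strand, and in Nr4a2 the run TTATTTATAG is the MEF2 box.
Nr4a1: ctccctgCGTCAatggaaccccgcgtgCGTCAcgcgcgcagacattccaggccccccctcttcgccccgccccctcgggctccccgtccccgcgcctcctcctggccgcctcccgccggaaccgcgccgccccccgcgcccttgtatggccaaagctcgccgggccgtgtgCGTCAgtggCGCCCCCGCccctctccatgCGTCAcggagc
Nr4a2: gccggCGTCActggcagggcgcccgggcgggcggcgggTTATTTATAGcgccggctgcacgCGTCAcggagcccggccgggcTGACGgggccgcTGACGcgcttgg
Nr4a3: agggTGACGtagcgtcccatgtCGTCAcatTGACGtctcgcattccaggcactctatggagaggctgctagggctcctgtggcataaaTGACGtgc

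**Figure D1:**
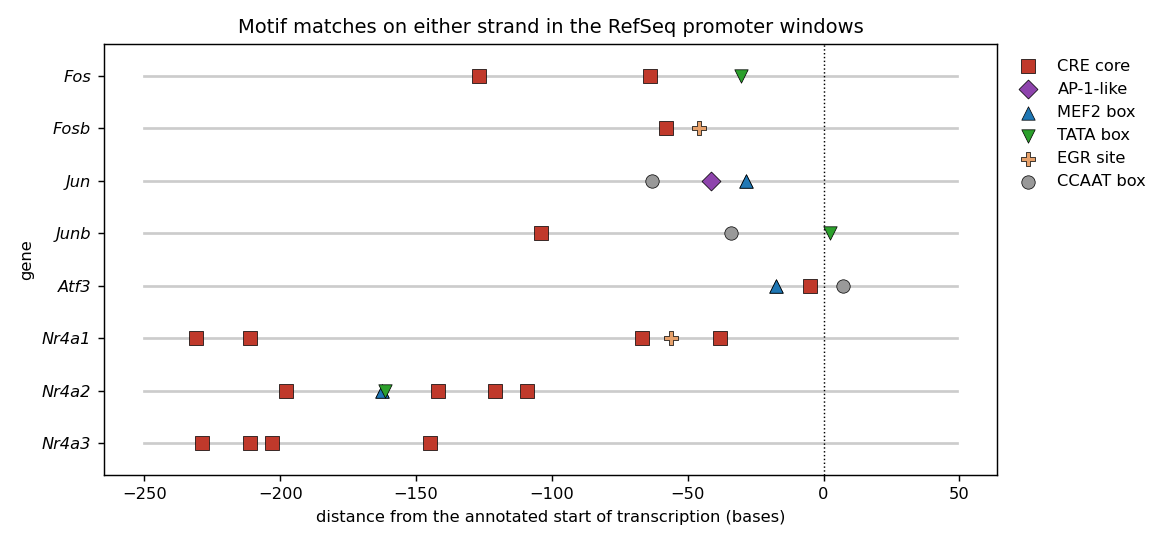
Motif matches (symbols) in the promoter windows of 8 immediate early genes, by distance in bases from the annotated start of transcription. Each Nr4a gene shows 4 CRE cores, and Jun shows none.

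Levels of the members differed widely in resting EDL. Over the 12 libraries the mean was 82.8 FPKM for Nr4a1, 26.4 for Jun, 6.39 for Junb, 4.32 for Ier2, 2.14 for Fos, 2.001 for Atf3, 1.98 for Egr1, 1.04 for Nr4a2, 0.907 for Nr4a3 and 0.183 for Fosb. Nr4a1 was above Jun and Jun above Junb in 12 of 12 libraries, with ranges that did not overlap. Neighbors further down the order overlapped: Junb was above Ier2 in 11 libraries, Ier2 above Fos in 11, Fos above Atf3 in 6, Atf3 above Egr1 in 4 and Nr4a2 above Nr4a3 in 4. Nr4a1 alone made up between 55.2% and 73.5% of the summed FPKM of the members. Fosb did not reach the mean of 0.5 FPKM required for testing, so 9 of the 10 members were among the 12744 genes tested.

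The members also differed in how far libraries of one group lay apart. On the log2(FPKM + 0.5) scale used for the tests, the within-group SD was 0.576 for Nr4a2, 0.461 for Nr4a3, 0.453 for Fos, 0.396 for Egr1 and 0.354 for Atf3, against a median of 0.171 over all tested genes. These 5 lay between percentiles 87.6 and 95.6 of the tested genes. The SD was 0.205 for Nr4a1, 0.187 for Jun, 0.157 for Ier2 and 0.151 for Junb, between percentiles 40.6 and 62.0. Among the tested genes nearest in level, however, Nr4a1 stood at percentile 86.2 and Jun at 79.1, alongside the 5 more variable members (80.5 to 89.3), while Junb and Ier2 stood at 43.0 and 38.0. The ratio of the highest to the lowest library was 9.87 for Nr4a2 and 11.5 for Nr4a3, but 1.67 for Ier2.

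**Figure D2:**
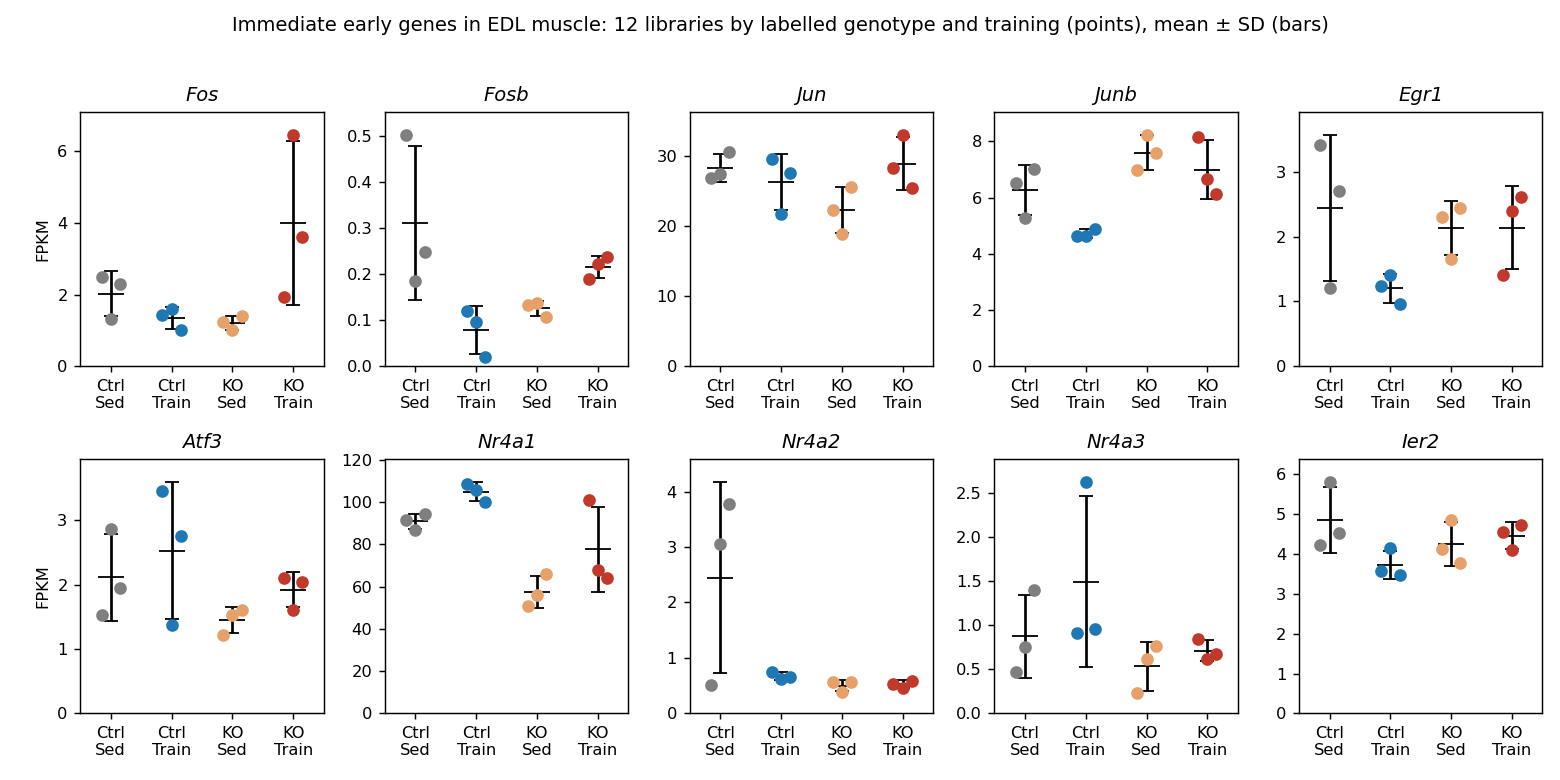
FPKM of each immediate early gene (1 panel per gene, each with its own vertical axis from 0) in the 3 libraries of each group (points), with the group mean and SD (bars). Nr4a1 was between 50.9 and 66.0 FPKM in the Sedentary libraries labelled Nrip1KO and at least 87.0 FPKM in all libraries labelled Ctrl.

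The first question was whether the members differed between the labelled genotypes in sedentary muscle. A call required an adjusted p under 0.05 over all tested genes and a fold change above 1.2. Of the 9 members tested, 1 was called, against 3.51% of all tested genes. The values of 8 members were lower in Nrip1KO and 1 was higher, with a median log2 difference of -0.39 against -0.001 over all tested genes. In 3 of the 10 members (Fosb, Jun and Nr4a1) the groups did not overlap, all lower in Nrip1KO. The share of tested genes was 20.7% in either direction. Fosb is not among the tested genes, so it has no part in the shares of tested genes here and below. The second question was the same comparison in trained muscle. Of the 9 members, 1 was called, against 5.98% of tested genes, 5 had higher and 4 lower values, and the median was 0.14 against 0.01 over all tested genes. In 6 of the 10 members the groups did not overlap (Fos, Fosb, Junb and Egr1 higher, Nr4a2 and Nr4a3 lower), against 27.3% of tested genes. Averaged over training, 2 members were called, against 8.8% of tested genes.

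The third question was whether wheel running left a difference in these genes. Neither labelled genotype gave a called gene with limma between Trained and Sedentary, among members or among all tested genes (0% in each). In Ctrl, 4 of the 9 members had an unadjusted p under 0.05 (Junb, Ier2, Nr4a2 and Egr1, all with lower values in Trained), against 8.33% of tested genes, and the median difference of the 9 was -0.33. In Nrip1KO there were 3 (Fos, Nr4a1 and Jun, all with higher values in Trained), against 12.1%, and the median was 0.26. Groups did not overlap in 4 of 10 members in Ctrl (Nr4a1 higher, Fosb, Junb and Ier2 lower), against 14.3% of tested genes. In Nrip1KO they did not overlap in 2 of 10 (Fos and Fosb higher), against 16.9%. Fosb again has no part in these shares. Averaged over genotypes, 0 of the 9 members were called, with 0.118% of all tested genes called, and 2 (Nr4a1 and Junb) had an unadjusted p under 0.05, against 11.5% of tested genes. The genotype by training interaction called 0 genes (0%), and 2 members (Fos and Jun) had an unadjusted p under 0.05 against 7.76% of tested genes.

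**Figure D3:**
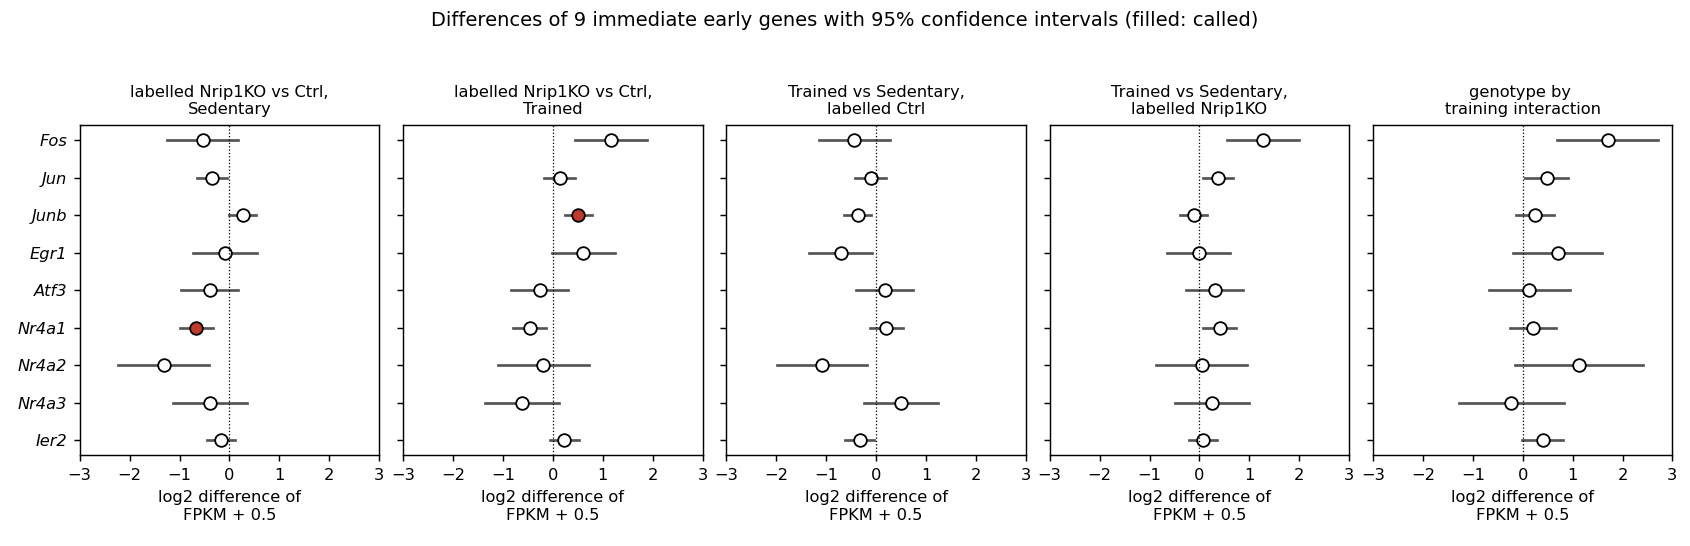
Differences of the 9 tested members (points) on the log2(FPKM + 0.5) scale with 95% confidence intervals (lines), in the 4 comparisons of 2 groups and in the interaction, where filled points were called. Nr4a1 was called in Sedentary at -0.66 and Junb in Trained at 0.51, and no other point is filled.

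Among the NR4A receptors, Nr4a1 (ENSMUSG00000023034, also known as Nur77; chromosome 15, 101254269 to 101274795, GRCm38), which controls glucose and lipid genes in fast muscle, was the most abundant and fell in the libraries labelled Nrip1KO. Its levels in the 3 Sedentary libraries labelled Nrip1KO were 50.9, 55.9 and 66.0 FPKM, and those of the Sedentary libraries labelled Ctrl were 91.6, 87.0 and 94.2 FPKM. The groups lay well apart, at 57.6 ± 7.67 against 91.0 ± 3.66 FPKM (SD, n = 3). The log2 difference was -0.66 (SE 0.149, limma adjusted p = 0.0359). This call rests on a value near the threshold. It was lost in 7 of 12 fits that left out a library (limma adjusted p up to 0.118). It was also lost in 4 of 10 other alternatives (up to 0.0953), with the difference between -0.82 and -0.58 throughout. Leaving out a library of another group does not change the difference itself. Among fits without a library of the groups compared, only that without Sedentary Nrip1KO replicate 3 kept the call (adjusted p = 0.0323). In Trained, the libraries labelled Ctrl held 109, 106 and 100.1 FPKM and those labelled Nrip1KO held 101, 68.1 and 64.1 FPKM. The first of the latter reached into the Ctrl range while the other 2 lay below it, and the difference of -0.46 was not called (SE 0.149, adjusted p = 0.0979). Without that library, replicate 1, it was -0.66 and was called (adjusted p = 0.00794). Without replicate 2 or 3 of the same group it was -0.38 or -0.34 and was not called (adjusted p = 0.285 and 0.307). Leaving out any Trained Ctrl library gave no call either (adjusted p from 0.170 to 0.220). Averaged over training, the difference was -0.56 (SE 0.106, adjusted p = 0.00584), and it stayed called in all 21 alternatives. Fast myofiber marker sums were correlated with Nr4a1 over the 12 libraries at r = 0.67, and endothelial sums at r = -0.58. Both sums also differed between the labelled genotypes. The r of largest size with Nr4a1 was -0.79, for neutrophil markers (3 of 6 in the data), whose sum reached at most 1.81 FPKM.

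With training, Nr4a1 values in Ctrl were higher without overlap, at a log2 difference of 0.21 that did not pass (adjusted p = 0.773). The corresponding difference in Nrip1KO was 0.41 (adjusted p = 0.326). The interaction was 0.20, with a 95% confidence interval from -0.26 to 0.67, so a difference in response of this size could not be resolved.

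Nr4a2 (ENSMUSG00000026826, Nurr1; chromosome 2, 57106830 to 57124003), a receptor best known from dopamine neurons and also induced by exercise in muscle, was split within a single group. Sedentary libraries labelled Ctrl held 0.508, 3.06 and 3.77 FPKM, or about 38.0, 250.5 and 245.0 fragments. The other 9 libraries lay between 0.382 and 0.746 FPKM, so the high values were confined to replicates 2 and 3 of this group. The log2 difference between the labelled genotypes in Sedentary was -1.32 (SE 0.413, adjusted p = 0.122), and that between Trained and Sedentary in Ctrl was -1.09 (SE 0.413, adjusted p = 0.518). Without replicate 1 of the Sedentary Ctrl group they were -1.97 and -1.74 and both were called (adjusted p = 3.89e-04 and 0.00892). With any other single library left out, Nr4a2 was not called in these comparisons. In Trained, Nr4a2 values in Nrip1KO (0.537, 0.457 and 0.589 FPKM) all lay under those in Ctrl (0.746, 0.613 and 0.655 FPKM). The difference of -0.19 was not called (adjusted p = 0.853). Adipocyte marker sums were correlated with Nr4a2 at r = -0.66 over the 12 libraries.

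Nr4a3 (ENSMUSG00000028341, NOR-1; chromosome 4, 48045153 to 48086447), the NR4A receptor that responds strongly to exercise, varied in another pattern. Its single high library was replicate 2 of Trained Ctrl at 2.62 FPKM, beside 0.915 and 0.956 FPKM in the others of that group. The Sedentary Ctrl libraries held 0.475, 0.756 and 1.40 FPKM. In Nrip1KO the Sedentary values of 0.228, 0.618 and 0.766 FPKM overlapped with the Trained values of 0.851, 0.619 and 0.673 FPKM. None of its differences was called. They were -0.39 and -0.62 between the labelled genotypes in Sedentary and Trained (adjusted p = 0.663 and 0.332), and 0.49 and 0.26 with training in Ctrl and Nrip1KO (adjusted p = 0.758 and 0.804). The group means of all 3 NR4A genes were thus lower in Nrip1KO in both training states. The groups overlapped for Nr4a1 in Trained and for Nr4a2 and Nr4a3 in Sedentary. Among the 3 genes, Nr4a1 alone was called in any comparison with all libraries kept.

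Among the FOS proteins, which pair with JUN proteins to form AP-1, Fos (ENSMUSG00000021250; chromosome 12, 85473890 to 85477273) had its highest values in Trained Nrip1KO. Those libraries held 1.93, 6.44 and 3.61 FPKM, against 1.22, 1.002 and 1.40 FPKM in Sedentary Nrip1KO. In Ctrl the Trained libraries held 1.43, 1.60 and 1.002 FPKM and the Sedentary libraries 2.49, 1.30 and 2.29 FPKM. All 3 Trained Nrip1KO values lay above every value of Trained Ctrl and of Sedentary Nrip1KO, but the 3 were themselves widely spread (3.99 ± 2.28 FPKM, SD, n = 3). The log2 difference between the labelled genotypes in Trained was 1.17 (SE 0.326, 95% confidence interval 0.45 to 1.88) and missed the threshold (limma adjusted p = 0.0595). It was called without replicate 1 of the Trained Nrip1KO group, the lowest of the 3 (1.55, adjusted p = 0.0145), and was 0.79 without replicate 2, the highest (adjusted p = 0.177). With training, the difference was 1.27 in Nrip1KO (unadjusted p = 0.00242, adjusted p = 0.215) and -0.43 in Ctrl (adjusted p = 0.785). The interaction was 1.70 (SE 0.461, 95% confidence interval 0.69 to 2.72), the largest of the 9 members, and did not pass the correction (unadjusted p = 0.00343, adjusted p = 0.536).

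Fosb (ENSMUSG00000003545; chromosome 7, 19302696 to 19310051), whose stable truncated product accumulates with repeated stimulation in brain, stood at the lower limit of detection. It rested on about 2.1 to 39.9 fragments per library and was not part of the main tests. Sedentary Ctrl libraries held 0.501, 0.185 and 0.248 FPKM and Trained Ctrl libraries 0.121, 0.0963 and 0.0211 FPKM. Sedentary Nrip1KO libraries held 0.132, 0.137 and 0.107 FPKM and Trained Nrip1KO libraries 0.189, 0.223 and 0.236 FPKM. Each training comparison was thus free of overlap, lower with training in Ctrl and higher in Nrip1KO, and so was each genotype comparison. Such opposite shifts were found with training in 0.721% and between genotypes in 0.603% of the 17752 genes. When all genes were fitted without a filter, the interaction of Fosb was 0.67 and was not called (adjusted p = 0.584).

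Among the JUN proteins, Junb (ENSMUSG00000052837; chromosome 8, 84974484 to 84978718), which has been linked to muscle growth and the maintenance of fiber size, was higher in Trained Nrip1KO. Those libraries held 8.16, 6.68 and 6.13 FPKM, and the Trained Ctrl libraries held 4.62, 4.64 and 4.89 FPKM. The groups did not overlap, at 6.99 ± 1.05 against 4.72 ± 0.151 FPKM (SD, n = 3). The log2 difference was 0.51 (SE 0.123, limma adjusted p = 0.0337). This call too stood near the threshold. It was lost in 6 of 12 fits that left out a library (limma adjusted p up to 0.0954). It was also lost in 4 of 10 other alternatives (up to 0.0683), with the difference between 0.40 and 0.60. Among fits without a library of the groups compared, only that without Trained Nrip1KO replicate 3 kept the call (adjusted p = 0.0477). In Sedentary, the libraries labelled Nrip1KO held 6.97, 8.22 and 7.60 FPKM and those labelled Ctrl 6.51, 5.28 and 7.01 FPKM. Here the lowest Nrip1KO value lay under the highest Ctrl value, and the difference of 0.26 was not called (adjusted p = 0.322). Averaged over training, the difference was 0.39 (SE 0.087, adjusted p = 0.0155), and it was lost in 1 of 21 alternatives, in which each library was scaled to the same FPKM sum (adjusted p = 0.0720). Training itself gave -0.37 in Ctrl (unadjusted p = 0.0126, adjusted p = 0.474), with no overlap, and -0.12 in Nrip1KO (adjusted p = 0.750). In Trained, where Junb was called, the fast myofiber sum was also free of overlap, at 112062 to 135272 FPKM in Ctrl and 94822 to 99247 FPKM in Nrip1KO, and so were the endothelial sum, at 68.5 to 82.8 FPKM and 90.8 to 93.6 FPKM, and, narrowly, the fibroblast sum, at 384.4 to 441.3 FPKM and 340.001 to 384.3 FPKM. Over the 12 libraries these sums were correlated with Junb at r = -0.63, 0.53 and -0.28, and their part in the difference was not tested.

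Jun (ENSMUSG00000052684; chromosome 4, 95049034 to 95052222), the main partner of FOS in AP-1, ran from 18.9 to 32.9 FPKM. Its lowest values were in Sedentary Nrip1KO, at 22.3, 18.9 and 25.5 FPKM, under all 3 of Sedentary Ctrl at 26.9, 27.4 and 30.5 FPKM. The log2 difference was -0.35 (unadjusted p = 0.0297, adjusted p = 0.237). Trained Nrip1KO libraries held 28.3, 32.9 and 25.4 FPKM and Trained Ctrl libraries 29.6, 21.7 and 27.5 FPKM, and these groups overlapped. With training the difference was 0.37 in Nrip1KO (adjusted p = 0.334) and -0.11 in Ctrl (adjusted p = 0.879), with an interaction of 0.48 (unadjusted p = 0.0313, adjusted p = 0.626).

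Atf3 (ENSMUSG00000026628; chromosome 1, 191170296 to 191218039), a stress-induced bZIP factor that can repress other early genes, had its widest spread in Trained Ctrl at 3.45, 1.37 and 2.76 FPKM. The other groups lay within that span or just under it, at 1.53, 2.86 and 1.95 FPKM in Sedentary Ctrl, 1.22, 1.53 and 1.61 FPKM in Sedentary Nrip1KO and 2.10, 1.60 and 2.04 FPKM in Trained Nrip1KO. Every pair of groups overlapped, and its 4 differences ran from -0.39 to 0.31 without a call (adjusted p from 0.531 to 0.907).

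Egr1 (ENSMUSG00000038418; chromosome 18, 34859823 to 34864984), a zinc finger factor induced through serum response factor, was lowest in Trained Ctrl at 1.24, 1.40 and 0.966 FPKM. Those values lay just under the lowest of Trained Nrip1KO, which held 1.41, 2.40 and 2.62 FPKM. Sedentary Ctrl libraries held 3.41, 1.21 and 2.70 FPKM and Sedentary Nrip1KO libraries 2.30, 1.65 and 2.44 FPKM. The log2 difference between the labelled genotypes was 0.61 in Trained (unadjusted p = 0.0581, adjusted p = 0.257) and -0.09 in Sedentary (adjusted p = 0.927). With training it was -0.71 in Ctrl (unadjusted p = 0.0306, adjusted p = 0.537) and -0.01 in Nrip1KO (adjusted p = 0.991). Fibroblast marker sums (5 genes, all detected) had their highest group mean in Trained Ctrl. The sums ran from 384.4 to 441.3 FPKM there and from 326.5 to 353.1 FPKM in Sedentary Ctrl, and Sedentary Nrip1KO replicate 2 reached 431.6 FPKM. Fibroblast sums were correlated with Egr1 at r = -0.76 and with Fosb at r = -0.73 over the 12 libraries. Among these markers, Col1a1 had a log2 difference of 1.04 with training in Ctrl (limma adjusted p = 0.0593). For Dcn, the most abundant of them, it was 0.03 (limma adjusted p = 0.969).

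Ier2 (ENSMUSG00000053560; chromosome 8, 84661331 to 84662852), a small nuclear protein of the early response, had the lowest ratio of the highest to the lowest library among the members, at 1.67. Sedentary Ctrl libraries held 4.22, 5.79 and 4.53 FPKM, all above the Trained Ctrl values of 3.57, 4.13 and 3.47 FPKM. The log2 difference was -0.33 (unadjusted p = 0.0266) and was not called (adjusted p = 0.528). In Nrip1KO, Sedentary values of 4.11, 4.85 and 3.78 FPKM overlapped with Trained values of 4.55, 4.09 and 4.73 FPKM, at 0.07 (adjusted p = 0.888). Schwann cell and blood marker sums (5 genes each, all detected) were correlated with Ier2 at r = 0.79 and r = 0.76 over the 12 libraries, and in Ctrl they ran from 103.6 to 149.5 and from 753.0 to 1811 FPKM in Sedentary against 73.5 to 99.3 and 723.3 to 863.3 FPKM in Trained.

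Library by library, the members did not move as one. Of 45 pairs, 25 had a positive Pearson r over the 12 libraries, with a median of 0.07, while 8 pairs exceeded 0.5 and 3 fell below -0.5. One set was made up of Fosb and Egr1 (r = 0.73, Spearman's rho 0.72), Fos and Egr1 (0.56, rho 0.60) and Fos and Fosb (0.56, rho 0.69). Within groups, after group means were removed, r was 0.71, 0.78 and 0.47 for these pairs. Nr4a1 and Nr4a3 made another pair (r = 0.66, rho 0.78, within groups 0.36). Egr1 ran against Atf3 (r = -0.60, within groups -0.58), whereas Junb ran against Nr4a1 over all libraries (r = -0.57) but with it within groups (r = 0.69). These are descriptions over 12 libraries that share group, depth and scaling. Of the 3 NR4A genes, with 4 CRE cores each, Nr4a1 had r = 0.66 with Nr4a3 and 0.31 with Nr4a2. Nr4a2 and Nr4a3 had r = 0.28. Within groups these were 0.36, 0.0074 and 0.39. Whether the motifs have a part in this was not tested.

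**Figure D4:**
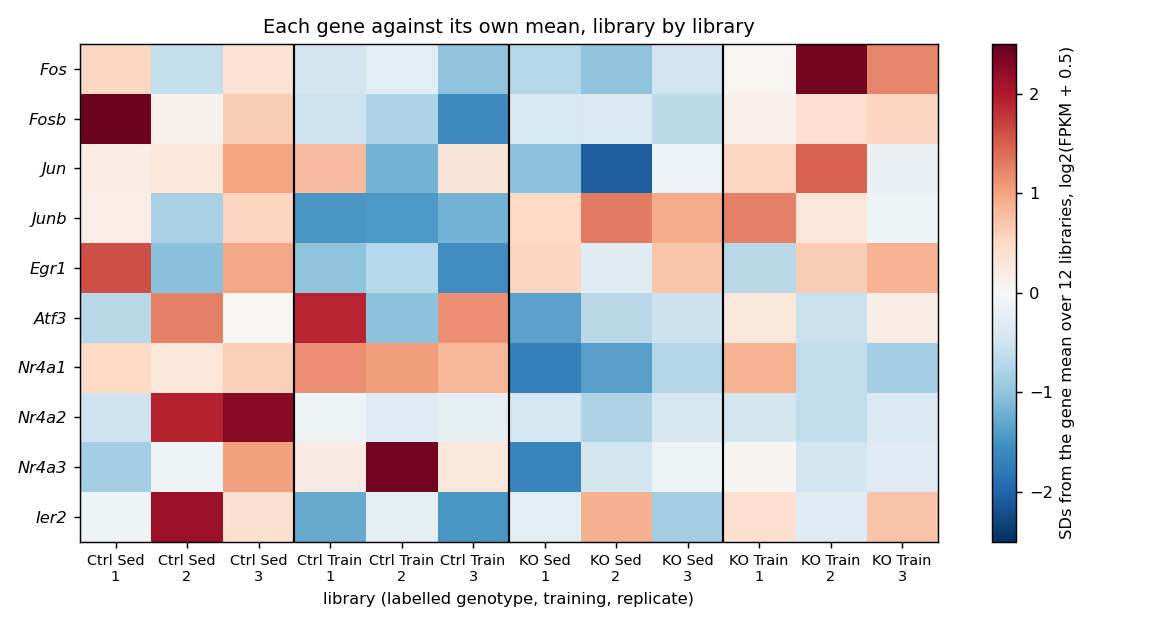
Each immediate early gene (rows) in each library (columns, by group and replicate), as SDs from the gene's own mean over the 12 libraries on the log2(FPKM + 0.5) scale. Nr4a2 stands out in 2 Sedentary Ctrl libraries, Nr4a3 in 1 Trained Ctrl library and Fos in 2 Trained Nrip1KO libraries.

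**Figure D5:**
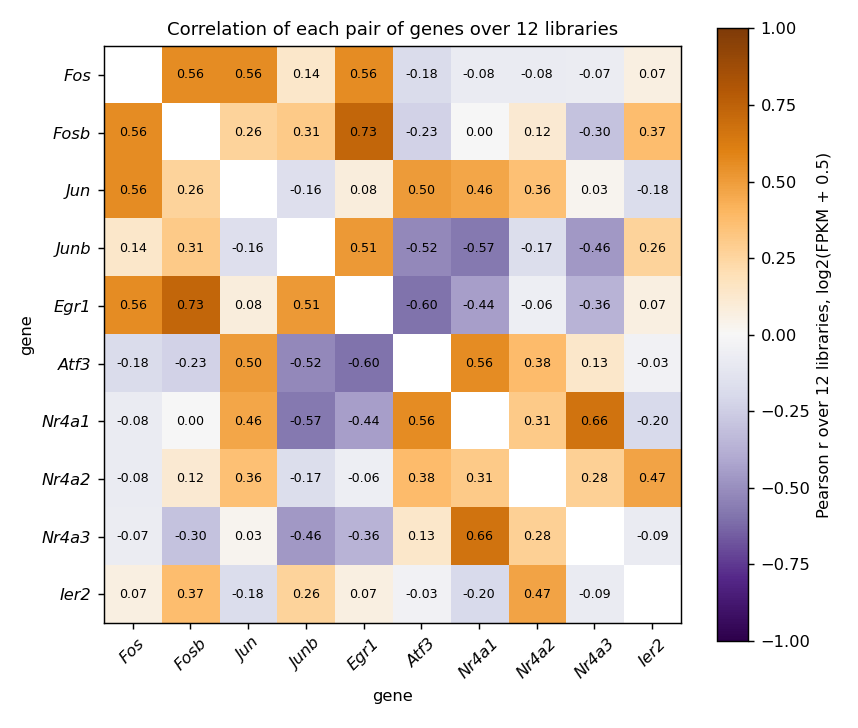
Pearson r of each pair of immediate early genes over the 12 libraries on the log2(FPKM + 0.5) scale (color and printed value). Fosb with Egr1 is the highest at 0.73 and Egr1 with Atf3 the lowest at -0.60.

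Outside the members, the genes with profiles most like their mean (the average of the 9 z-scored profiles) included Fam53a (r = 0.84), Zfp768 (0.84), Dnttip2 (0.83), Tut4 (0.82), Gm15727 (0.82), Dnaaf5 (0.81), Pdxdc1 (0.81), Mup18 (0.80) and Ubap1 (0.80). The genes most like Fos alone were Zbtb7a (r = 0.95), Trappc12 (0.93) and Urgcp (0.92). These were picked as the highest of all tested genes over the 12 libraries, so their r values are descriptions of that choice.

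The remaining genes of the early response were taken from lists. Of 35 other primary response genes tested, 3 were called higher with training averaged over genotypes and none lower, against 0.118% of all tested genes called in either direction. Rhob, a small GTPase, was 0.59 higher (SE 0.058, limma adjusted p = 0.00707), at 19.8 to 25.2 FPKM in the 6 Sedentary libraries and 30.9 to 36.5 FPKM in the 6 Trained libraries. Nfkbia, the inhibitor of NF-κB, was 0.66 higher (adjusted p = 0.0188) and Cebpd, a C/EBP factor that also responds to glucocorticoids, was 1.45 higher (adjusted p = 0.0227). Cebpd lay between 1.83 and 2.93 FPKM in Sedentary libraries and between 4.50 and 10.7 FPKM in Trained libraries. Between the labelled genotypes, 1 of the 35 was called in Sedentary, 2 in Trained and 3 in the average over training. The shares of all tested genes called were 3.51%, 5.98% and 8.8%, respectively. Rrad, which inhibits calcium channels, was 0.88 higher in Sedentary Nrip1KO (adjusted p = 0.0231). Gadd45b and Ier3, both stress-responsive, were 0.88 and 0.59 higher in Trained Nrip1KO (adjusted p = 0.0107 and 0.0264). Plk2, a kinase of the early response, was called with Rrad and Gadd45b in the average over training (0.47, adjusted p = 0.00708).

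The same shares of all tested genes apply to genotype calls in the lists that follow. They are 3.51% in Sedentary, 5.98% in Trained and 8.8% averaged over training. Among 8 feedback inhibitors tested, Dusp4, a phosphatase of MAP kinases, was called higher in Trained Nrip1KO (0.82, adjusted p = 0.0289). No other was called in any comparison. The extremes of this list with training were Zfp36 at 0.62 (adjusted p = 0.175) and Zfp36l2 at -0.32 (adjusted p = 0.127). Among 28 upstream regulators tested, 22 had lower values in Sedentary Nrip1KO and 20 in Trained Nrip1KO, with a median of -0.09 in both. Of these, Camk2a, a calcium/calmodulin-dependent kinase, was called lower in both (-0.45 and -0.61, adjusted p = 0.0210 and 0.00355), and Ppp3cb, a catalytic subunit of calcineurin, and Mef2a, a MADS-box factor, were called lower in Trained (-0.36 and -0.31, adjusted p = 0.00679 and 0.0187). Camk2a ran from 231.2 to 280.7 FPKM in the libraries labelled Ctrl and from 161.4 to 202.2 FPKM in those labelled Nrip1KO. The extremes of the list with training were Hdac4 at 0.40 and Mrtfa at -0.27, neither called (adjusted p = 0.290 and 0.596).

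Of 8 other AP-1 family genes tested, Mafg was called lower in Trained Nrip1KO (-0.29, adjusted p = 0.0321) and Atf2 in the average over training (-0.28, adjusted p = 0.0181). With training, Jund and Atf2 had the highest and lowest differences of that list, at 0.14 and -0.09 (adjusted p = 0.649 and 0.647). The EGR corepressors Nab1 and Nab2 stood at -0.15 and -0.35 (adjusted p = 0.584 and 0.183), and no gene of the EGR and NAB list was called. The heat shock gene Bag3, a co-chaperone, was called higher in Nrip1KO in both training states (0.42 and 0.57, adjusted p = 0.0231 and 0.00394), and no other of the 10 heat shock and stress genes was called, with Ddit3 lowest with training at -0.34 (adjusted p = 0.354). All 11 glucocorticoid-responsive genes had higher values with training in Ctrl and 10 of 11 in Nrip1KO, with medians of 0.67 and 0.34 and no call. The medians over all tested genes were 0.002 and 0.009. This list was drawn up with earlier results of these data known, so its shared direction is a description. The extremes were Pdk4 at 1.42 (adjusted p = 0.138) and Cdkn1a at 0.15 (adjusted p = 0.730) in the average over genotypes. Of 12 clock genes tested none was called, and with training Per1 was highest at 0.39 (adjusted p = 0.138) and Nr1d1 lowest at -0.27 (adjusted p = 0.464).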

How the data were processed

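DNase-treated total RNA of EDL muscle was sequenced from libraries that do not preserve strand. Per the study's methods and the submitters' processing notes, the authors quantified reads with Salmon 1.10.2 against mm10, summed transcripts to genes with tximport and used DESeq2 1.44.0. The authors deposited FPKM for every gene in each library. The deposited log2 fold changes and adjusted p-values of the authors' own comparisons were not used. The scale of each library was read from the steps between low FPKM values of 1613 single-transcript genes. Between 98.8% and 99.7% of values lay within 0.15 of a whole fragment. Fragments given per gene assume its longest annotated transcript.

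FPKM is not a count, so limma 3.58.1 in R 4.3.3 was fitted to log2(FPKM + 0.5) for the 12744 genes that averaged 0.5 FPKM or more, with 4 group means over all 12 libraries and a trended variance prior, two-sided, with Benjamini-Hochberg adjustment. Calls needed an adjusted p under 0.05 and a fold change above 1.2 (the interaction the adjusted p alone). This scale understates changes of low genes. The code was tested on simulated data. Groups came from the sample labels, which do not say whether replicates are separate animals, so p-values measure the spread between these samples. Python 3.11.15 was used elsewhere. The labels' replicate numbers were not used as a block.

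The members and lists were chosen with earlier results of these data known. Named genes were all members, each list gene called in a contrast, the highest and lowest of each list with training averaged over genotypes, and the genes most like the members' mean profile or Fos, of which 1 is not reported here. Alternatives were other pseudocounts (0.1 and 1), filters (none, or a mean of 5 FPKM), scalings, a replicate block, no trend, fits of only the 2 groups compared, and leaving out each library. Promoter windows came from RefSeq (GRCm38.p6).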

Additional observations from a re-analysis of the deposited data

Results flagged for a closer look

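Fosb was set apart because its 3 libraries per group shifted in opposite directions, without overlap, with training in the 2 labelled genotypes. Its mean was 0.312 FPKM in Sedentary and 0.0793 FPKM in Trained libraries labelled Ctrl, against 0.126 FPKM in Sedentary and 0.216 FPKM in Trained libraries labelled Nrip1KO. The difference in response was tested in the limma fit without a filter, where the interaction was 0.67 on the log2(FPKM + 0.5) scale and did not pass (adjusted p = 0.584). The values rest on about 2.1 to 39.9 fragments per library.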

How the results depend on the processing

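Of 561 member differences under settings other than leaving out a library, 557 kept their direction. Of 756 with a library left out, 17 reversed. None of the reversed differences had been called. Many refits could not reverse: the difference stays the same when only the filter, trend, replicate block or groups fitted change. It also stays the same when a library outside the groups compared is left out. Members called in Sedentary between genotypes fell from 1 to 0 under quantile scaling (Nr4a1 adjusted p = 0.0530), without a trend (0.0585), with each library scaled to the same nuclear FPKM sum, chosen after seeing the data (0.0953), and with the replicate block (0.0533). In Trained they fell to 0 with the same FPKM sum (Junb adjusted p = 0.0507), the same nuclear sum (0.0576), only the 2 groups (0.0683) and the replicate block (0.0554). Averaged over training they fell from 2 to 1 with the same sum. Leaving out 1 library gave 0 to 1 members called in Sedentary, 0 to 2 in Trained, and 0 to 1 with training in Ctrl and averaged over genotypes, where Nr4a2 was called without Sedentary Ctrl replicate 1. The block changed no other call. Same-numbered libraries were not alike throughout (r from -0.10 to 0.24 over 18 pairs, 5 over 0.1). Replicate 2 of Sedentary Ctrl gave r = 0.195 with that of Trained Ctrl and 0.16 with that of Sedentary Nrip1KO. The latter 2 gave 0.24 with each other. Replicate 2 of Trained Nrip1KO gave -0.10, -0.05 and -0.03 with them in the same order. Scaling to the same sum moved the median of all genes by -0.14 between genotypes in Sedentary, 0.16 with training in Nrip1KO and 0.20 in the interaction, and there the training difference in Nrip1KO was 0.13 for Egr1 and 0.047 for Junb, and the genotype average for Ier2 -0.0085. Quantile scaling put Egr1 with training in Nrip1KO at 0.040. The log2 differences that changed sign with 1 library left out ranged from -0.44 to 0.16 for Egr1 between genotypes in Sedentary, and from -0.012 to 0.094 for Ier2 between genotypes averaged over training. With training in Ctrl, Jun ranged from -0.20 to 0.016 and Atf3 from -0.052 to 0.49. With training in Nrip1KO, Egr1 ranged from -0.15 to 0.21, Nr4a2 from -0.046 to 0.092 and Ier2 from -0.0046 to 0.16. The interaction ranged from -0.18 to 0.36 for Atf3, from -0.00067 to 0.33 for Nr4a1 and from -0.49 to 0.15 for Nr4a3. Of 513 refitted differences of the called list genes and of Nrip1, 74 lost the call and none reversed. Many of these too could not reverse. At a mean of at least 5 FPKM only Nr4a1, Jun and Junb remained testable.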
